A study of Mus musculus with 2 samples.

Results

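The strongest sites of a Glis3 binding map are described here: the 222 sites with 38 or more ChIP tags, of 1343 sites listed (16.5%, exact 95% interval 14.6 to 18.6). They were selected on their tag count, the number of sequenced fragment ends that the caller assigned to a site. The map comes from αTC1-9, an established mouse line of glucagon-producing pancreatic α cells. The cells carried Glis3 with a 3xFlag tag and mCherry, and both the FLAG precipitate (1 library) and the input chromatin (1 library) came from cells with this fusion. Cells without it were not among the samples, so what the FLAG gel holds on its own cannot be told apart from Glis3 binding. The labels do not say which promoter drives the fusion or whether the cells are 1 clone. A list of positions also gives no marker genes by which to check the cell type. The tag files recorded in the header are named for liver, and the protocol mentions ES cells at the ChIP step, so the results hold for the libraries behind the list, whatever their cells.

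Glis3 is a zinc finger transcription factor of the Gli-similar family, related to the Gli factors of hedgehog signalling, and it binds G-rich DNA elements through its zinc fingers. In the pancreas it is known for its part in the formation of β cells and in insulin gene transcription, and its loss causes neonatal diabetes with hypothyroidism. The α-cell line normally makes glucagon and not insulin. The series' design text gives the mapping of Glis3-associated sites as the purpose. Gene annotation and DNA sequence of the mm9 build were not used here, so sites are named by position and no sequences are shown.

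Tags, fold and caller p-value describe the selection and are no findings. The strong sites had a median of 46.5 tags (quartiles 41 and 53.75, range 38 to 94), against 22 (range 19 to 37) at the 1121 remaining sites. Of them, 139 had 38 to 49 tags and 83 had 50 or more. They held 10961 of the 37908 tags in listed sites (28.9%), which was 0.0561% of the tags the caller used. Their fold over input, the authors' own value per site, had a median of 38.1 (quartiles 23.4 and 46.4, range 18.1 to 89.4). The fold range began as low as that of the whole list because of strong sites with 2 or more input tags. At 75 strong sites (33.8%) the listed tags and the fold correspond to such a whole input. The folds at chr5:23848911-23849091 and chr16:35193651-35194011, from fewer tags than listed, also correspond to 2 input tags but are not counted. No site of under 38 tags could be listed with such an input, since the caller asked for an 18-fold enrichment. The threshold thus coincided with the lowest count at which such an input was possible. Median fold and the share with a neighbour within 100 kb were close at 37 and 38 tags, but the sites there are too few to show likeness. The 15 sites with 38 tags had a median fold of 36.2 (range 18.1 to 36.2). The 14 sites with 37 tags had one of 35.2 (range 21.9 to 35.2), and the 16 sites with 39 tags one of 28.1. Another site lay within 100 kb at 8 of the 15 and at 8 of the 14.

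The strong site with the most tags on each chromosome shows how unequal the members were. On chromosome 11, sites at chr11:32095291-32095391 and chr11:118990171-118990231 tied at 94 tags and a fold of 89.4, and on chromosome 2, at chr2:172866971-172867011, it also had 94 tags and a fold of 89.4. Of the tied pair on chromosome 11, the first stood 370 kb from the nearest listed site and the other 5030 bp. The chromosome 2 site had a listed site 6.32 kb away. On chromosome 8 the site with the most tags was chr8:124644631-124644691, with 72 tags and a fold of 34.3, and on chromosome 12 it was chr12:25852771-25852891, with 63 tags and a fold of 59.95. The chromosome 12 site had a weaker listed site 270 bp away. On chromosome 10 it was chr10:98378451-98378491, with 59 tags and a fold of 56.1, and the nearest listed site was 2191 kb away. The lowest of these chromosome leaders were chr19:7147371-7147411 with 48 tags, tied with the leader on chromosome 18, and chr3:88904911-88904971 with 43 tags, the only strong site on chromosome 3. Leaders with many tags and leaders with few were found both alone and beside other sites.

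The median width of the called interval was the same at strong and at remaining sites. The interval is the stretch between the strands' opposing tags to which the caller assigned the site, in steps of 20 bp, and it is made from the same reads as the tag count. The median was 60 bp at strong sites (quartiles 40 and 140 bp, range 40 to 440 bp) and also 60 bp at the remaining sites (quartiles 40 and 140 bp, range 40 to 580 bp). An interval of 100 bp or more was found at 89 of 222 strong sites (40.1%, exact interval 33.6 to 46.9), at 457 of 1121 remaining sites (40.8%, 37.9 to 43.7) and at 40.7% of the whole list. The shortest interval, 40 bp, was held by 78 strong sites (35.1%, 28.9 to 41.8) and by 368 remaining ones (32.8%, 30.1 to 35.7). At the other end, 38 strong sites spanned 200 bp or more (17.1%, 12.4 to 22.7), against 132 of the remaining sites (11.8%, 9.95 to 13.8). For 300 bp or more the numbers were 16 (7.21%, 4.18 to 11.4) and 41 (3.66%, 2.64 to 4.93). These intervals of the shares overlapped in each comparison. The shares average over unlike sites. Widths of 100 bp or more were found at 31.5% (26.6 to 36.8) of sites with 19 to 20 tags and 51.8% (45.4 to 58.1) with 25 to 31. Where the fold corresponds to 1 input tag, they were found at 40.9% of strong and 36.8% of remaining sites. At strong sites with 2 or more input tags the share was 28.0% (18.2 to 39.6). Exact intervals cover counting error only and treat sites as independent. With 1 ChIP library no test between libraries could be made, here or in what follows.

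**Figure D1:**
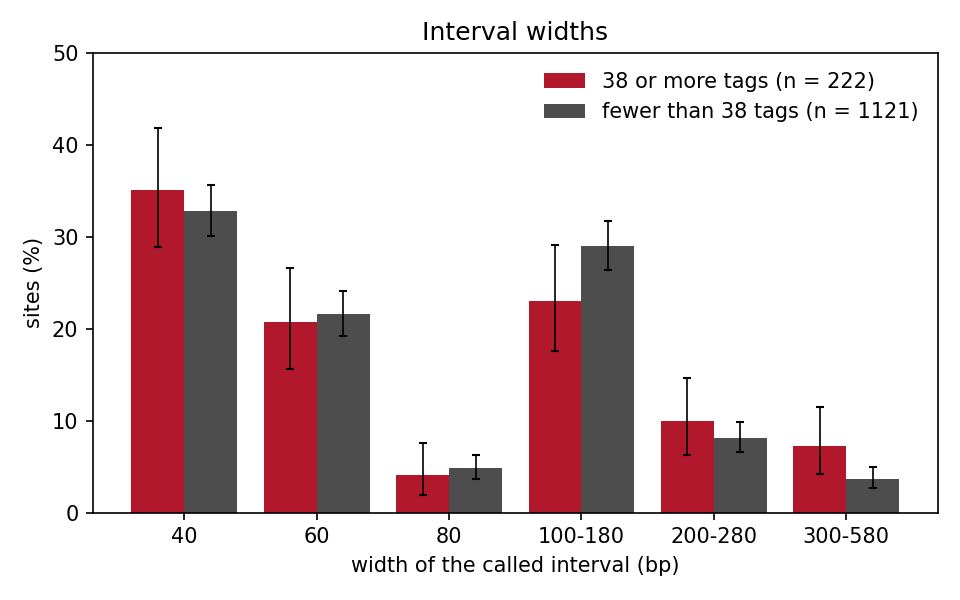
Percent of sites (y axis) by width of the called interval in bp (x axis) for the 222 strong and the 1121 remaining sites; error bars are exact 95% binomial intervals. Both sets peak at 40 bp, at 35.1% of strong and 32.8% of remaining sites.

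The widest strong sites had from 39 to 59 tags. Intervals of 440 bp were called at chr1:181515671-181516111 (59 tags), chr6:90413251-90413691 (55 tags) and chr11:5091951-5092391 (39 tags). The next were chr17:31927591-31927991 with 400 bp and 59 tags, and 3 sites of 380 bp: chr9:121669811-121670191 (44 tags), chr5:125696231-125696611 (42 tags) and chr2:32198171-32198551 (39 tags). Wide intervals were frequent where the deposited fold and the listed tags disagreed. At 15 strong sites the fold corresponded to fewer tags than the number listed, and 14 of these 15 had an interval of 100 bp or more (median 180 bp). The same held for the remaining sites: 70 had such a fold (6.24%, against 6.76% of strong sites), and 70 of 70 spanned 100 bp or more (median 180 bp). At 8 of the 15 the fold corresponded to fewer than 38 tags. The lowest was at chr2:32198171-32198551, listed with 39 tags and a fold of 23.8 that corresponds to 25. Membership there rests on the listed number.

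Strong sites lay closer to other listed sites than the remaining sites did. The median distance to the nearest other site was 53.4 kb (exact 95% interval of the median 31.7 to 87.0 kb; quartiles 5.73 and 305 kb) for strong sites and 136 kb (113 to 162 kb; quartiles 21.7 and 532 kb) for the remaining sites. Another site stood within 100 kb of 131 of 222 strong sites (59.0%, exact interval 52.2 to 65.5), of 505 of 1121 remaining sites (45.0%, 42.1 to 48.0) and of 47.4% of all sites. Within 10 kb the counts were 65 strong sites (29.3%, 23.4 to 35.7) and 188 remaining sites (16.8%, 14.6 to 19.1), with 18.8% over all sites. Within 1 kb they were 31 (13.96%, 9.69 to 19.2) and 79 (7.05%, 5.62 to 8.71), with 8.19% over all sites. At each of these 3 distances the exact interval of the strong share lay above that of the remaining share. The distances are nested, so these are not 3 separate results. A strong and a remaining site near each other count in both shares, and the exact intervals do not allow for this. Among sites with an implied input (the input tags their fold corresponds to) of 1 tag, the intervals overlapped at all 3: 55.3% (46.4 to 63.96) against 44.7% (41.7 to 47.8) within 100 kb, 26.5% (19.2 to 34.9) against 16.9% (14.7 to 19.3) within 10 kb, and 12.9% (7.68 to 19.8) against 7.23% (5.74 to 8.97) within 1 kb. At 500 kb, over all strong and remaining sites, the shares were 80.6% (74.8 to 85.6) and 74.1% (71.5 to 76.7), and the intervals overlapped.

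**Figure D2:**
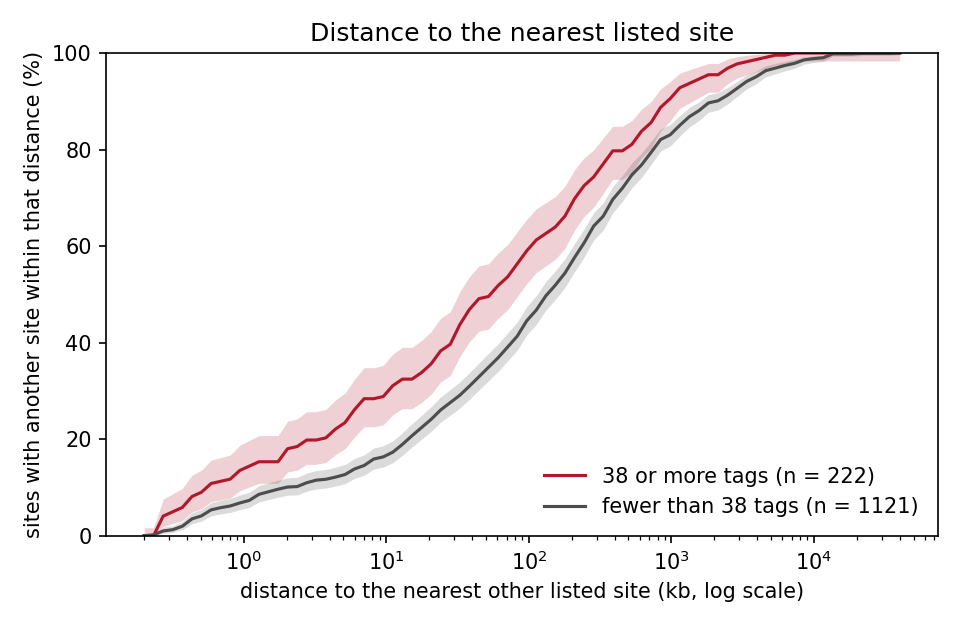
Percent of sites (y axis) whose nearest other listed site lies within the distance on the x axis (kb, log scale), for strong and remaining sites; shaded bands are exact 95% binomial intervals. At 100 kb the curves stand at 59.0% and 45.0%, and they meet toward the longest distances.

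Counts of neighbours differed in the same direction. A strong site had a median of 1 other site within 100 kb (mean 1.32) and a remaining site a median of 0 (mean 0.933). Of the strong sites, 91 had none, 51 had 1, 37 had 2 and 43 had 3 or more. The share with 3 or more was 19.4% (14.4 to 25.2) against 11.9% (10.0 to 13.9) at the remaining sites. With 5 or more it was 4.50% (2.18 to 8.13) against 3.12% (2.18 to 4.32), which did not separate. The highest number was 8 at a strong site and 9 at a remaining one.

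Across classes of tag count, the share with a site within 100 kb was 41.7% (36.3 to 47.1) at 19 to 20 tags, 44.1% at 21 to 24, 48.6% at 25 to 31 and 49.3% (40.7 to 57.9) at 32 to 37. It was 59.0% (50.3 to 67.3) at 38 to 49 tags, 59.5% (47.4 to 70.7) at 50 to 74 and 55.6% (21.2 to 86.3) at the 9 sites with 75 or more. No 2 adjacent classes had intervals that were apart at 100 kb. Within 10 kb the share was 19.3% (13.1 to 26.8) at 32 to 37 tags and 28.1% (20.8 to 36.3) at 38 to 49. Within 1 kb it was 8.70% at 25 to 31 tags and 3.57% (1.17 to 8.14) at 32 to 37. At 38 to 49 tags it was 12.9% (7.86 to 19.7). These intervals also overlapped on the 2 sides of 38 tags. Overlap is no test of the difference, so a step there was neither resolved nor excluded. Within the strong set the shares showed no further rise that the counts could resolve. Strong sites with a site within 100 kb had a median of 47 tags and those without one of 46.

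**Figure D3:**
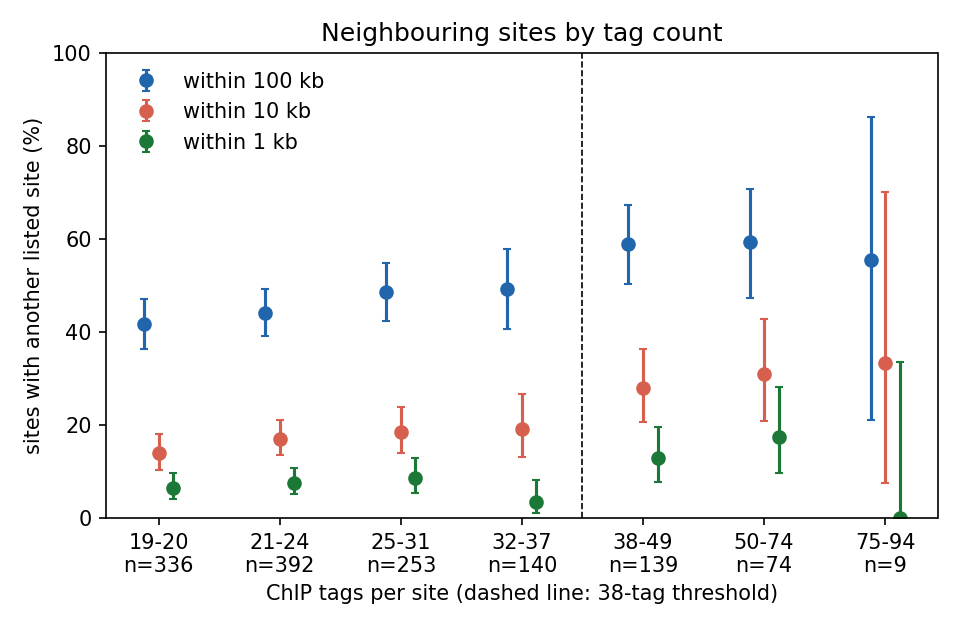
Percent of sites with another listed site within 100, 10 or 1 kb (y axis) by ChIP tags per site (x axis, number of sites under each class); points are shares and bars exact 95% binomial intervals, and the dashed line marks the threshold of 38 tags. The 100 kb share runs from 41.7% at 19 to 20 tags to 59.5% at 50 to 74 tags.

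Neighbours of strong sites were of both kinds. Of the 131 strong sites with a site within 100 kb, the nearest was itself strong at 35 (26.7%), and of the 505 such remaining sites it was strong at 102 (20.2%). Over all 636 sites with a site within 100 kb it was strong at 137 (21.5%). A strong neighbour within 100 kb was found at 59 strong sites (26.6%, 20.9 to 32.9), at 171 remaining sites (15.3%, 13.2 to 17.5) and at 17.1% of all sites. A neighbour from the remaining sites was found at 114 strong sites (51.4%, 44.6 to 58.1) and at 462 remaining sites (41.2%, 38.3 to 44.2), so the closer spacing was not limited to strong sites beside each other. The 171 remaining sites with a strong site within 100 kb had a median of 23 tags, and the 950 without had one of 22. Of the 59 pairs of adjacent sites within 1 kb, 29 joined a strong and a remaining site, 28 a pair of remaining sites and 2 a pair of strong sites. Pairs this close can be separate calls on 1 stretch of enriched chromatin, and their tags are then not independent. With sites within 1 kb merged into the one with the most tags, the share of strong sites with a site within 10 kb was 18.7% and that of remaining sites 10.4%.

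When sites were chained into groups at steps of up to 100 kb, the 1343 sites formed 933 groups, and 187 of these (20.04%) held a strong site. Strong sites made up 12.9% (10.5 to 15.6) of the 707 sites that stood alone, 17.8% (13.4 to 22.9) of sites in pairs, 22.0% (16.9 to 27.8) in groups of 3 to 4 and 24% (16.8 to 32.5) in groups of 5 to 10. Groups of 3 to 4 sites numbered 71 and groups of 5 to 10 sites numbered 20. The intervals do not allow for sites that share a group, and these shares rest on the same distances as the neighbour shares above. Of the 187 groups with a strong site, 159 held 1 strong site, 22 held 2, 5 held 3 and 1 held 4.

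Strong sites within 1 kb of each other were found at 2 places. On chromosome 1, chr1:95107011-95107071 had 68 tags and a fold of 64.7, and chr1:95107931-95108011, 930 bp away, had 74 tags and a fold of 70.4. Another strong site, chr1:95104251-95104291 with 52 tags, and 3 remaining sites of 19 to 24 tags completed the neighbourhood within 100 kb. On chromosome 15, chr15:84526631-84526671 had 44 tags, chr15:84527431-84527491 had 56 and chr15:84527731-84527771 had 58. A remaining site with 23 tags, chr15:84527191-84527231, lay between the first and the second, and another strong site, chr15:84470551-84470611 with 55 tags, lay 56.1 kb away. The folds differed more than the tags there: 41.9 at the 44-tag site, but 26.6 and 27.6 at the sites of 56 and 58 tags.

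The stretch with the most strong sites was not the one with the most listed sites. The largest number of strong sites in a stretch of up to 1 Mb was 6, of 11 listed, on chromosome 2 from 173419391 to 174271911, with 40 to 55 tags each. It overlapped chr2:172764251-173616091, which was among the densest stretches of the whole list, with 4 strong sites of 11. A stretch of 228 kb on chromosome 15, from 84299791 to 84527771, held 5 strong sites of 6 listed, and one of 369 kb on chromosome 5, from 113198671 to 113567751, held 4 of 5. The stretches with 17 listed sites, chr8:122027291-122949431 and chr10:79364031-80320951, each held 1 strong site. In the first of these it was chr8:122923531-122923811, with 45 tags and 8 other sites within 100 kb, the most of any strong site. The next were chr5:125659811-125659851, with 49 tags and 7 others, and chr12:110089851-110089891, with 51 tags and 6 others.

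At the opposite end, 43 strong sites (19.4%, 14.4 to 25.2) had no other site within 500 kb, against 290 remaining sites (25.9%, 23.3 to 28.5). Without a site within 1 Mb there were 20 strong sites (9.01%, 5.59 to 13.6) and 186 remaining ones (16.6%, 14.5 to 18.9). The most isolated strong site was chr1:14175451-14175691, with 47 tags, a fold of 22.4 and its nearest site 6.81 Mb away. It was followed by the chromosome 3 site named above (5.27 Mb), by chr6:108609871-108610031 with 40 tags (4.42 Mb), by chr1:39396771-39396811 with 54 tags (3.76 Mb) and by chr13:24816011-24816151 with 40 tags (3.36 Mb).

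Strong sites were found on 19 of the 20 chromosomes with listed sites. Chromosome 11 held 32, chromosomes 1 and 2 held 27 each, and these, which also have the most listed sites, together held 86 strong sites (38.7%) against 329 remaining ones (29.3%). Chromosome 11 held 14.4% of strong sites and 11.1% of all listed sites. For chromosome 2 the shares were 12.2% and 10.6%, and for chromosome 1 they were 12.2% and 9.23%. As a share of a chromosome's own sites, strong sites ran from 4.84% (3 of 62, exact interval 1.01 to 13.5) on chromosome 12 to 23.5% (20 of 85, 15 to 33.97) on chromosome 5, leaving out X. Shares above 20% were also found on chromosomes 1 (21.8%, 14.9 to 30.1), 6 (22.1%, 13.9 to 32.3), 11 (21.5%, 15.2 to 28.9) and 16 (22.2%, 11.2 to 37.1). Chromosome 10 had 4 of 59 (6.78%, 1.88 to 16.46) and chromosome 9 had 3 of 32 (9.38%). Chromosome X had none of 10, which allows a share of up to 30%. The intervals of chromosomes 10 and 12 lay below the 16.5% of the whole list and those of the other 18 included it, without adjustment for 20 chromosomes.

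**Figure D4:**
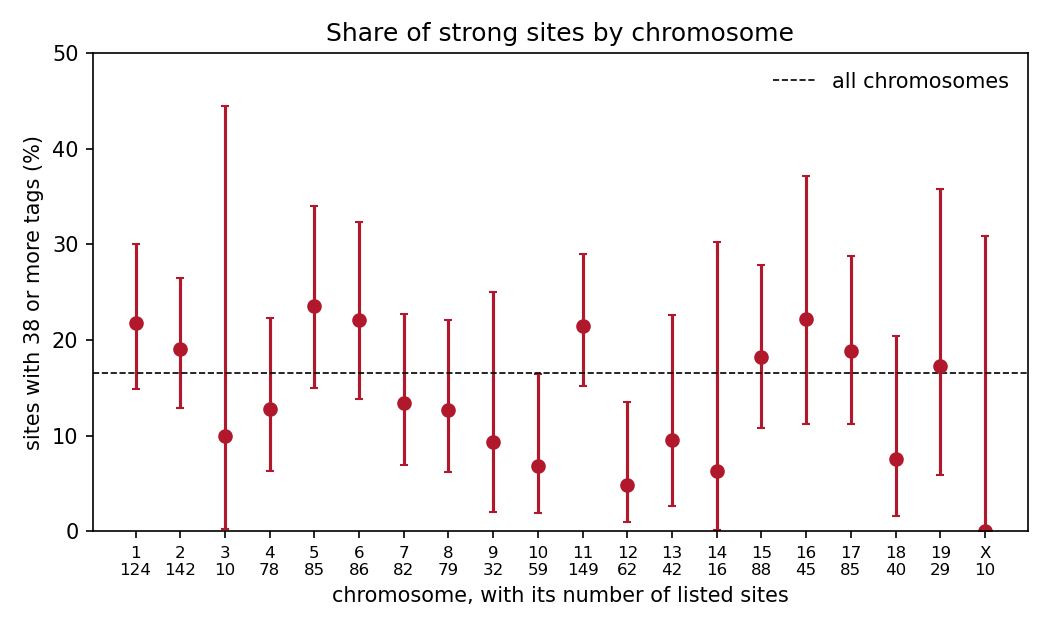
Percent of a chromosome's listed sites that have 38 or more tags (y axis) by chromosome (x axis, number of listed sites beneath); points are shares, bars exact 95% binomial intervals and the dashed line the 16.5% of the whole list. Chromosomes 10 and 12 lie below the line with their intervals, and chromosome X has no strong site.

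A fold that corresponds, at the listed tags, to a whole input of 2 or more tags was found at 33.8% of all strong sites. Sites whose implied input was not whole are not counted in it. By chromosome it was found at 11 of 32 on chromosome 11 (34.4%, exact interval 18.6 to 53.2), 11 of 27 on chromosome 2 (40.7%, 22.4 to 61.2), 10 of 27 on chromosome 1 (37.04%, 19.4 to 57.6), 8 of 16 on chromosome 15 (50%, 24.7 to 75.3) and 6 of 10 on chromosome 16 (60%, 26.2 to 87.8). The other chromosomes with 10 or more strong sites had lower shares. It was found at 4 of 19 on chromosome 6 (21.1%), 3 of 11 on chromosome 7 (27.3%) and 6 of 20 on chromosome 5 (30%). On chromosomes 4 and 8 it was 3 of 10 each (30%), and on chromosome 17 it was 5 of 16 (31.25%). The exact interval of each of these chromosomes included the share of the whole set, and chromosomes with 3 or 4 strong sites resolved no difference. Among sites whose fold corresponds to 1 input tag, strong sites made up 11.2% (132 of 1183) over all chromosomes. They made up 13.4% (7.995 to 20.6) on chromosome 11, 8.11% (1.70 to 21.9) on chromosome 16, 17.4% (9.32 to 28.4) on chromosome 5 and 19.7% (11.5 to 30.5) on chromosome 6. On chromosome 10 the share was 7.14% (1.98 to 17.3) and on chromosome 12 it was 1.72% (0.0436 to 9.24). The interval of chromosome 12 lay below 11.2% and that of chromosome 6 above it, without adjustment for the number of chromosomes. The part of input level in the chromosome shares was not tested.

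The closer spacing was also looked at within chromosomes and within one level of input. On 13 of the 17 chromosomes with 3 or more strong sites, a larger share of strong than of remaining sites had another site within 100 kb. On chromosome 11 it was 25 of 32 (78.1%) against 65 of 117 (55.6%), and on chromosome 2 it was 19 of 27 (70.4%) against 61 of 115 (53.0%). On chromosome 1 the shares were 14 of 27 (51.9%) and 51 of 97 (52.6%), and chromosomes 9, 10 and 18 had lower shares among their 3 or 4 strong sites. With the remaining sites weighted to the chromosomes of the strong ones, their share was 47.2% in place of 45.0%. Leaving out each chromosome in turn kept the strong share 11.96 to 15.7 percentage points above the other. The shares within 100 kb at an implied input of 1 tag, given above, came from 73 of 132 strong and 470 of 1051 remaining sites. Of the 75 strong sites with an implied input of 2 or more, 48 had a site within 100 kb (64.0%, 52.1 to 74.8), as did 10 of the 15 whose implied input was not whole (66.7%, 38.4 to 88.2). The part of input level in the spacing was not tested.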

How the data were processed

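The site list was deposited for 1 FLAG ChIP library, called against 1 input library. Bowtie and mm9 are named in the submitters' processing notes. Per the file headers, SISSRs 1.4 called sites with a window of 20 bp, an E-value set to 10, p-values limited to 0.0001, fragments of 210 bp, 1 tag per position and 2 directional tags on each side. The caller used 19551047 of 20037091 ChIP tags and 18603239 input tags. As deposited, each site has a tag count, a fold over input and a p-value, all the caller's own values.

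Members are all sites with at least 38 tags. The members and the comparisons were chosen with earlier results of these data known. Distances were taken between interval centres. Implied input is tags × 0.951521 / fold, whole within 0.01; where not whole, the tags behind a fold are the largest whole multiple of fold / 0.951521 not above those listed. An implied input of 1 may also be an input of 0 that the caller raised. Shares have exact Clopper-Pearson 95% intervals and medians exact order-statistic intervals. Sites named are the leader in tags on each chromosome (the leaders are given in part), strong sites within 1 kb of another, and the 5 most isolated, most crowded and widest. Stretches of up to 1 Mb, chromosome comparisons and groups were chosen after the values were seen. The counting of neighbours was checked on 20 simulated lists of evenly spaced sites with planted neighbours and recovered in 20. That is a check of the code only, not of the results. No test across sites was run. Positions are as deposited in mm9. Tools were scipy 1.17.1, pandas 2.3.3, numpy 2.4.6 and matplotlib 3.10.9 under Python 3.11.15.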

Additional observations from a re-analysis of the deposited data

How the results depend on the processing

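Of 117 alternative values over 10 results, 100 stayed within the exact interval of the reported value (for the number of sites, within 1.5 times). The alternatives that take tags from the fold (214 strong sites) or leave out a chromosome were chosen after seeing the data. Those outside the interval mostly follow from their construction. The number of strong sites was 414 at a threshold of 30 tags and 83 at 50 tags. The share of chromosome 11's own listed sites that were strong was then 35.6% and 7.38%. That share was 13.4% among sites with an implied input of 1, where the remaining sites with an interval of 100 bp or more came to 36.8%. With sites within 1 kb merged, 18.7% of strong and 10.4% of remaining sites had another within 10 kb, and 41.0% of remaining sites had one within 100 kb. With a window of 50 kb, the shares were 49.1% of strong and 34.3% of remaining sites and the median number of neighbours 0. With 500 kb they were 80.6% and 74.1%, with a median of 2. Remaining sites of 80 bp or more came to 45.6% and of 120 bp or more to 34.9%. For the share with another site nearby, strong minus remaining was positive in each alternative run. At 100 kb it ran from 10.6 points (implied input of 1) to 15.7 (without chromosome 1). With a window of 500 kb it was 6.50 points. The runs without a chromosome keep most of the same sites and are not independent checks. For wide intervals the difference had no fixed sign: it ran from -2.78 points (tags from the fold) to 4.09 (implied input of 1), against -0.677. No paired analysis was possible because the ChIP and the input have 1 library each. Small sets limit the precision: 9 sites had 75 or more tags, and chromosomes 3 and 14 held 1 strong site each.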
